A study of Rattus norvegicus with 10 samples.

Results

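Pancreatic islets of 40-day-old JB rats were set against those of F344 rats, both groups without the lyp mutation. The comparison rests on the 4 arrays that the labels give to these groups, 2 JB and 2 F344, of 10 in the series. The labels describe JB as diabetes inducible and resistant, with no mutation at lyp, and F344 as a healthy control. The other groups also had 2 arrays each at 40 days. JBlyp/lyp was diabetes prone and homozygous for the lyp mutation. F344lyp was described as a healthy control and is taken to carry lyp from its name. DR+/+ was diabetes inducible, without the mutation. The relation of JB to DR+/+ is not stated in the labels, nor whether an array holds RNA of a single animal or of a pool. By the labels, islets came from fasted male animals and were freed with collagenase and a density gradient. Their RNA was labelled as biotin cRNA. The stated question of the series was whether islets of BB rats handle oxidative stress less well than those of other strains before insulitis, and whether such differences lie in known diabetes regions.

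The BB rat is a model of autoimmune type 1 diabetes, in which lymphocytes destroy the insulin-producing beta cells of the islet. The lyp mutation lies in Gimap5, a GTPase that T cells need to survive, and homozygous animals lack most peripheral T cells. Islets also hold glucagon, somatostatin and pancreatic polypeptide cells, capillary endothelium, resident macrophages and nerve endings. They lie in exocrine tissue, whose acinar cells make digestive enzymes and whose ducts carry them away, and an islet preparation keeps some of that tissue.

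Each value is a log2 intensity, so a difference of 1 is 2-fold, and differences are JB minus F344 with their standard error (SE). A probe set counts as called when its limma p, adjusted over all 31042 probe sets, was under 0.05. Where several probe sets carry a symbol, the brightest on average over the 10 arrays stands for the gene. The labels call the 2 arrays of each group biological replicates. The p-values measure only the spread between arrays of a group, estimated over all 5 groups, and part of it may be technical.

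The arrays differed in ways that bear on the results. The difference between the 3′ and 5′ control probe sets of Gapdh was 3.71 and 3.31 on the JB arrays, against 2.43 and 2.35 on the F344 arrays, and the groups did not overlap. That of Actb was 4.17 and 3.40 on the JB arrays, against 3.06 and 2.95 on the F344 arrays. A fit with the Gapdh value as a covariate called 1 probe set, so the strain and this measure of RNA could not be told apart. The 2 JB arrays correlated with each other at 0.9852 over all probe sets, and the 2 F344 arrays at 0.9965. JB replicate 1 correlated with JBlyp/lyp replicate 1 at 0.9911 and JB replicate 2 with JBlyp/lyp replicate 2 at 0.9918, both higher than the correlation between the JB arrays.

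Gimap5 itself read 7.05 on JB replicate 1 and 5.95 on JB replicate 2, against 7.03 and 6.82 on the F344 arrays (adjusted p = 0.422). The array labelled JB replicate 2 lay within the range of the 4 lyp arrays, which read 5.95 and 5.65 in JBlyp/lyp and 5.96 and 6.02 in F344lyp, while the DR+/+ arrays read 8.22 and 8.41. No member of the Gimap list of 5 genes was called, but all 5 differences were below 0, with a median of -0.565. The list mean was 5.70 on JB replicate 1 and 5.41 on JB replicate 2, against 6.06 and 6.01 in F344. It was 5.29 and 5.20 in JBlyp/lyp and 5.51 and 5.38 in F344lyp, so JB replicate 2 again lay within the range of the lyp arrays. Where leaving out JB replicate 2 or another of the 4 arrays moved the count of a list by over 1.5 times, the count without it is given, except for counts of 2 or fewer. Xist, the RNA that coats the inactive X chromosome in females, read 11.94 and 12.16 on the JB arrays and 10.06 and 10.56 on the F344 arrays, although the labels name male animals. This difference was called (1.74 ± 0.20, adjusted p = 0.000904), as were those of its other probe sets (1.16, 1.17 and 1.30). The Y-linked Eif2s3y read 2.56 and 2.39 on the JB arrays and 2.36 and 2.39 on the F344 arrays. Whether the groups differ in the sex of the animals was not tested.

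The hormones that define islets were near the top of the scale in both groups. Ins1, one of the insulin genes of the rat, read 14.20 and 14.19 in JB and 14.27 and 14.26 in F344, and Gcg, which encodes glucagon, read 13.15 and 13.26 in JB and 13.12 and 12.95 in F344. So were acinar genes: Prss1, a trypsinogen, read 13.05 and 12.92 in JB and 13.88 and 13.72 in F344. In such bulk tissue fewer cells of a type and less RNA per cell cannot be told apart.

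Of the 31042 probe sets, 3595 were called (11.6%), 1933 higher in JB (6.23%) and 1662 lower (5.35%). Of 14217 genes, 1849 were called (13.0%), 681 higher (4.79%) and 1168 lower (8.22%). Counts of the gene lists are to be read beside these shares. Among the called genes 224 were at least 2-fold higher and 408 at least 2-fold lower, and 28 and 32 passed 4-fold. The median difference over all genes was -0.04. Without JB replicate 2 the fit called 1029 genes, without F344 replicate 1 it called 403, and without F344 replicate 2 it called 551. The arrays of a group were less alike in JB: the median gap between the 2 arrays was 0.233 in JB and 0.109 in F344.

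**Figure D1:**
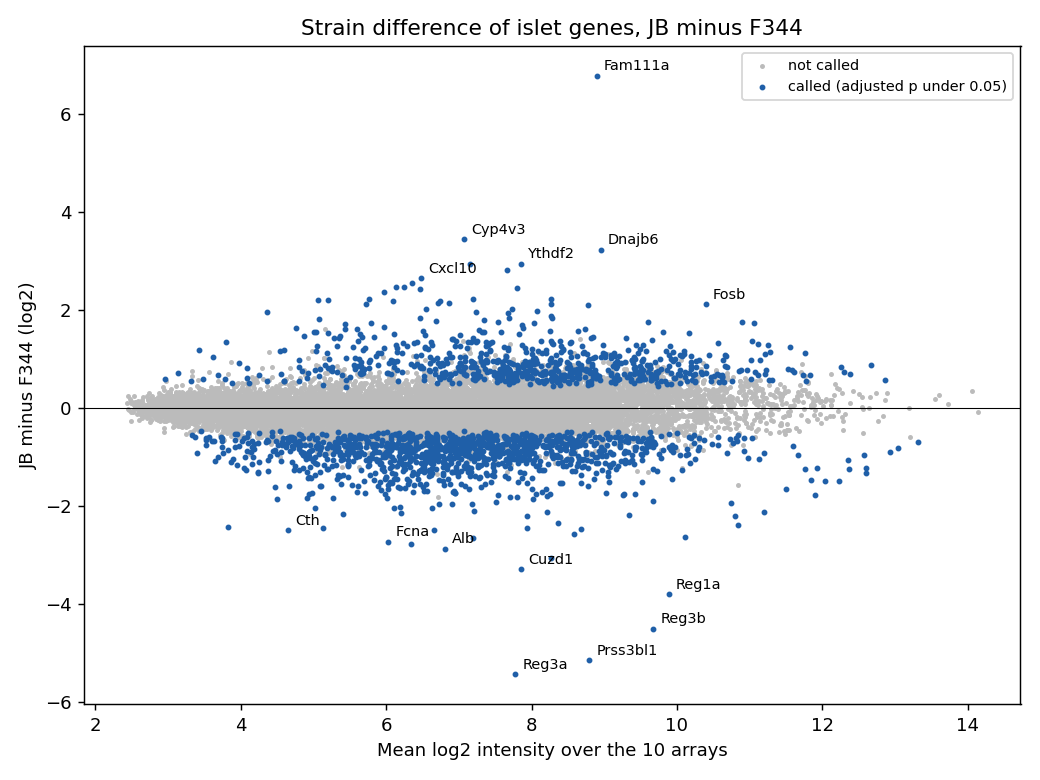
Each point is a gene, with the mean log2 intensity over the 10 arrays on the horizontal axis and the JB minus F344 difference (log2) on the vertical axis. Blue points are the 1849 called genes and grey points the rest. Fam111a stands alone at the top, and Reg3a, Prss3bl1, Reg3b and Reg1a at the bottom.

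Reg3a, Reg3b and Reg1a of the regenerating family, secreted lectin-like proteins that acinar cells make in inflammation, were among the 4 genes with the largest falls in JB, with Prss3bl1. Reg3a read 4.47 and 4.79 in JB, against 10.28 and 9.84 in F344. Its difference of -5.43 ± 0.22 is 43.1-fold lower in JB (adjusted p = 2.47e-06). Reg3b read 7.20 and 7.37 in JB, against 11.86 and 11.72 in F344, a difference of -4.50 ± 0.20 (22.7-fold lower). Both JB arrays lay far below both F344 arrays for each of these genes, where the rule for the largest falls required no overlap. Reg1a, at 7.66 and 7.79 in JB and 11.68 and 11.36 in F344, was 13.9-fold lower. Of 4 family members measured, 3 were called, and Reg3g was not (difference -0.44 ± 0.16, adjusted p = 0.109).

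Acinar genes were lower in JB almost throughout. Of 34 measured acinar markers, 30 were called lower and none higher, where 8.22% of all genes were called lower, and the median difference was -1.48. Leaving out JB replicate 2 gave 21 and leaving out F344 replicate 1 gave 15. The mean log2 level over the list was 9.71 and 9.40 in JB, against 11.19 and 11.01 in F344.

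The size of the fall varied among digestive enzymes. Prss1, Cela1 (an elastase) and Cpa1 (carboxypeptidase A1) differed by -0.81 ± 0.19, -0.96 ± 0.23 and -1.77 ± 0.32. Prss3, another trypsinogen, read 9.28 and 9.10 in JB, against 11.83 and 11.78 in F344, 6.15-fold lower. Prss3bl1 read 6.36 and 6.63 in JB, against 11.69 and 11.60 in F344, 35.4-fold lower (adjusted p = 1.52e-05). The trypsin inhibitor Spink1 read 7.66 and 7.04 in JB, against 10.03 and 9.61 in F344, and its relative Spink1l was 8.29-fold lower.

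Proteins of the acinar secretory route followed the same direction. Cuzd1, a zymogen granule membrane protein, read 6.41 and 6.16 in JB, against 9.68 and 9.46 in F344, 9.75-fold lower. Pdia2, a pancreatic protein disulfide isomerase, was 6.30-fold lower, and Serpini2, a pancreatic serpin, 5.89-fold lower. Ptf1a, a transcription factor that acinar cells need for their identity, read 5.19 and 4.68 in JB, against 6.16 and 6.26 in F344 (difference -1.27 ± 0.23).

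The ductal list gave 9 of 22 genes lower and none higher, with a median of -0.46. The count was 4 without F344 replicate 1, and 6 without JB replicate 2 or without F344 replicate 2. Tff2, a trefoil peptide of mucous epithelium, read 8.40 and 8.28 in JB, against 10.22 and 10.02 in F344. Muc1, an epithelial mucin, differed by -1.58 ± 0.17, and Aqp1, a water channel, by -1.38 ± 0.15. The other probe set of Aqp1 differed by -0.05 (adjusted p = 0.893). The keratins that define ducts were not called: Krt19 read 9.57 and 8.96 in JB and 9.02 and 8.95 in F344, and Krt7 read 9.50 and 9.02 in JB and 9.73 and 9.47 in F344.

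Other large falls lay outside the acinar list. Alb, serum albumin, read 5.45 and 5.21 in JB, against 8.14 and 8.24 in F344, 7.28-fold lower. Ang, the ribonuclease angiogenin, was 6.81-fold lower. Fcna, a ficolin that binds microbial sugars, read 4.90 and 4.86 in JB, against 7.48 and 7.72 in F344, 6.60-fold lower. Clec4m, a C-type lectin receptor, was 5.57-fold lower. The part of acinar RNA in these falls was not tested. Of the 3 further probe sets that genes with the 15 largest falls have, 2 were called the same way.

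**Figure D2:**
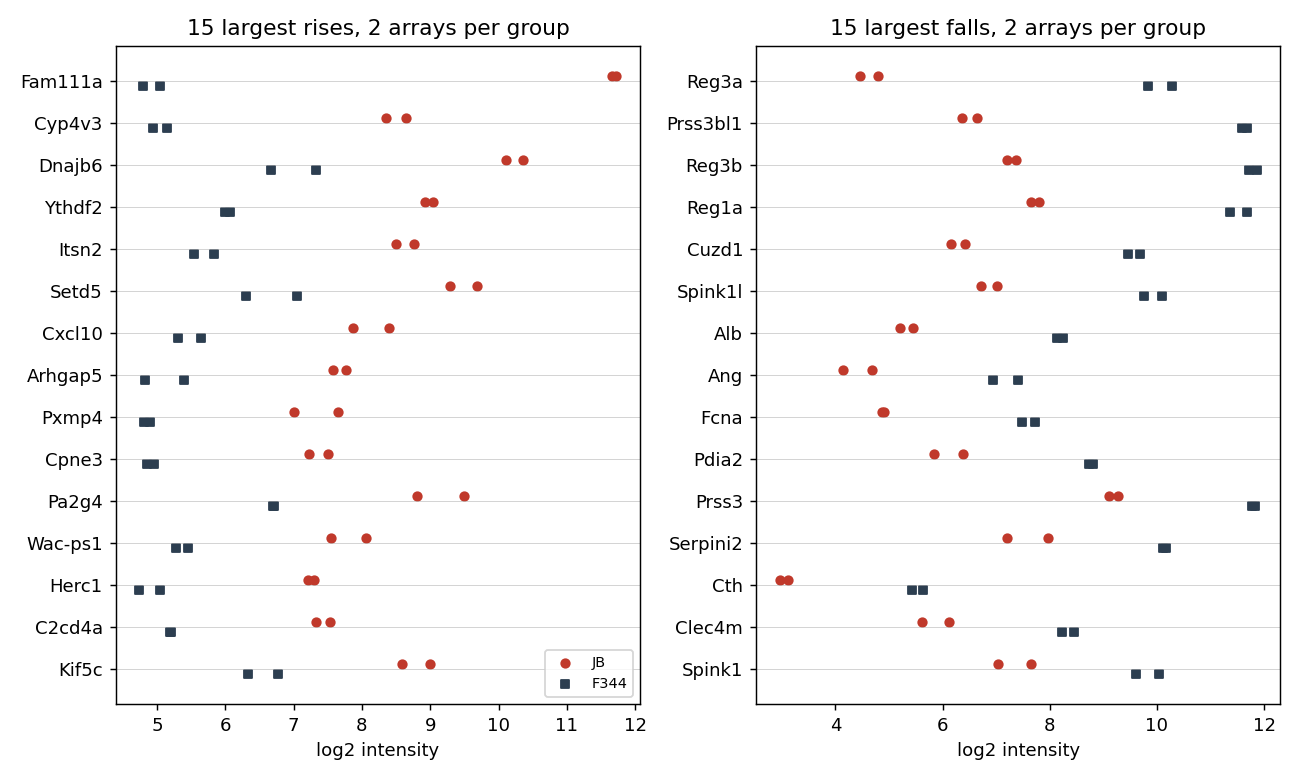
Log2 intensity of each array for the 15 largest rises (left) and the 15 largest falls (right), with JB as red circles and F344 as dark squares. Genes were chosen for called differences without overlap between the groups. Fam111a is near 11.7 in JB and near 5 in F344.

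Antioxidant genes tended to be lower in JB. Of 52 measured, 13 were called lower (25%, against 8.22% of all genes) and none higher, with a median difference of -0.26. Without JB replicate 2, 11 were called lower and 1 higher, while 4 were called lower without F344 replicate 1 and 7 without F344 replicate 2. Mean levels over the list were 7.68 and 7.58 in JB, against 8.10 and 8.02 in F344.

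Cth, cystathionine gamma-lyase, makes the cysteine used for glutathione. It read 3.12 and 2.96 in JB, against 5.64 and 5.42 in F344 (adjusted p = 5.28e-05). The JB values lie near the bottom of the scale and the files used give no detection call, so no fold is given. Cbs, the enzyme upstream of it, read 5.09 and 5.24 in JB, against 6.39 and 6.58 in F344, 2.50-fold lower. Ggt1, which cleaves extracellular glutathione, differed by -1.18 ± 0.20. All 3 genes were also lower in JBlyp/lyp than in F344lyp. Acinar genes moved the same way in these comparisons.

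Nqo2, a quinone reductase, read 5.99 and 6.51 in JB, against 7.92 and 7.88 in F344, 3.15-fold lower. Ucp2, a mitochondrial carrier that limits superoxide, read 8.40 and 8.59 in JB, against 9.59 and 9.56 in F344, 2.11-fold lower. Smaller called falls included Prdx5, a peroxiredoxin (-0.99 ± 0.14), Msrb1, a methionine sulfoxide reductase (-0.94 ± 0.14), Sod3, the extracellular superoxide dismutase (5.45 and 5.83 in JB, against 6.62 and 6.66 in F344), and Nqo1 (-0.70 ± 0.18).

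Central scavengers were not called. Catalase, Cat, read 8.40 and 8.19 in JB and 8.34 and 8.21 in F344 (difference 0.02 ± 0.17). The cytosolic superoxide dismutase Sod1 read 11.42 and 11.45 in JB and 11.79 and 11.58 in F344 (adjusted p = 0.329). Sod2, Gpx1, Txn1 and Hmox1 had adjusted p-values of 0.166, 0.693, 0.655 and 0.354. Gclc, the limiting subunit for glutathione synthesis, differed by 0.45 ± 0.19 (adjusted p = 0.168).

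Glutathione transferases, which couple glutathione to reactive compounds, gave 11 of 22 genes lower and none higher, with a median of -0.71. Without JB replicate 2 there were 9, without F344 replicate 1 there were 5 and without F344 replicate 2 there were 7. Mgst3, a microsomal transferase, read 5.47 and 5.13 in JB, against 6.92 and 6.91 in F344, 3.08-fold lower. Gstt3 read 6.21 and 5.92 in JB, against 7.70 and 7.50 in F344, 2.91-fold lower, and Gstt1 was 2.18-fold lower. Gstm4 and Gstm5 of the mu class were 2.14-fold and 2.15-fold lower. Members of the mu class are close in sequence, so their probe sets may share signal.

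Genes of energy metabolism were lower in part. Oxidative phosphorylation gave 17 of 57 genes lower and 1 higher, with a median of -0.46. This count fell to 4 without JB replicate 2, 0 without F344 replicate 1 and 5 without F344 replicate 2. Atp5f1d, a subunit of ATP synthase, read 9.13 and 8.72 in JB, against 10.65 and 10.22 in F344 (difference -1.51 ± 0.30). Ndufs3 of complex I differed by -1.33 ± 0.23, and Sdhb of complex II by -1.15 ± 0.22. Ndufa2, at -1.09 ± 0.31, was no longer called without JB replicate 2 (adjusted p = 0.23).

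Glycolysis and hypoxia genes gave 9 of 30 lower and 1 higher. Leaving out F344 replicate 1 or F344 replicate 2 left 3 lower, and leaving out JB replicate 2 left 6. Tpi1, triosephosphate isomerase, read 7.79 and 8.40 in JB, against 9.69 and 9.68 in F344, 3.01-fold lower. The enolases Eno1 and Eno2 were 2.40-fold and 2.16-fold lower, and Ldha, lactate dehydrogenase A, 2.04-fold lower. Pfkp, a phosphofructokinase, read 6.77 and 6.59 in JB, against 7.70 and 7.70 in F344. Ribosomal protein genes, in contrast, gave 2 of 33 lower and 1 higher, with a median of -0.06.

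**Figure D3:**
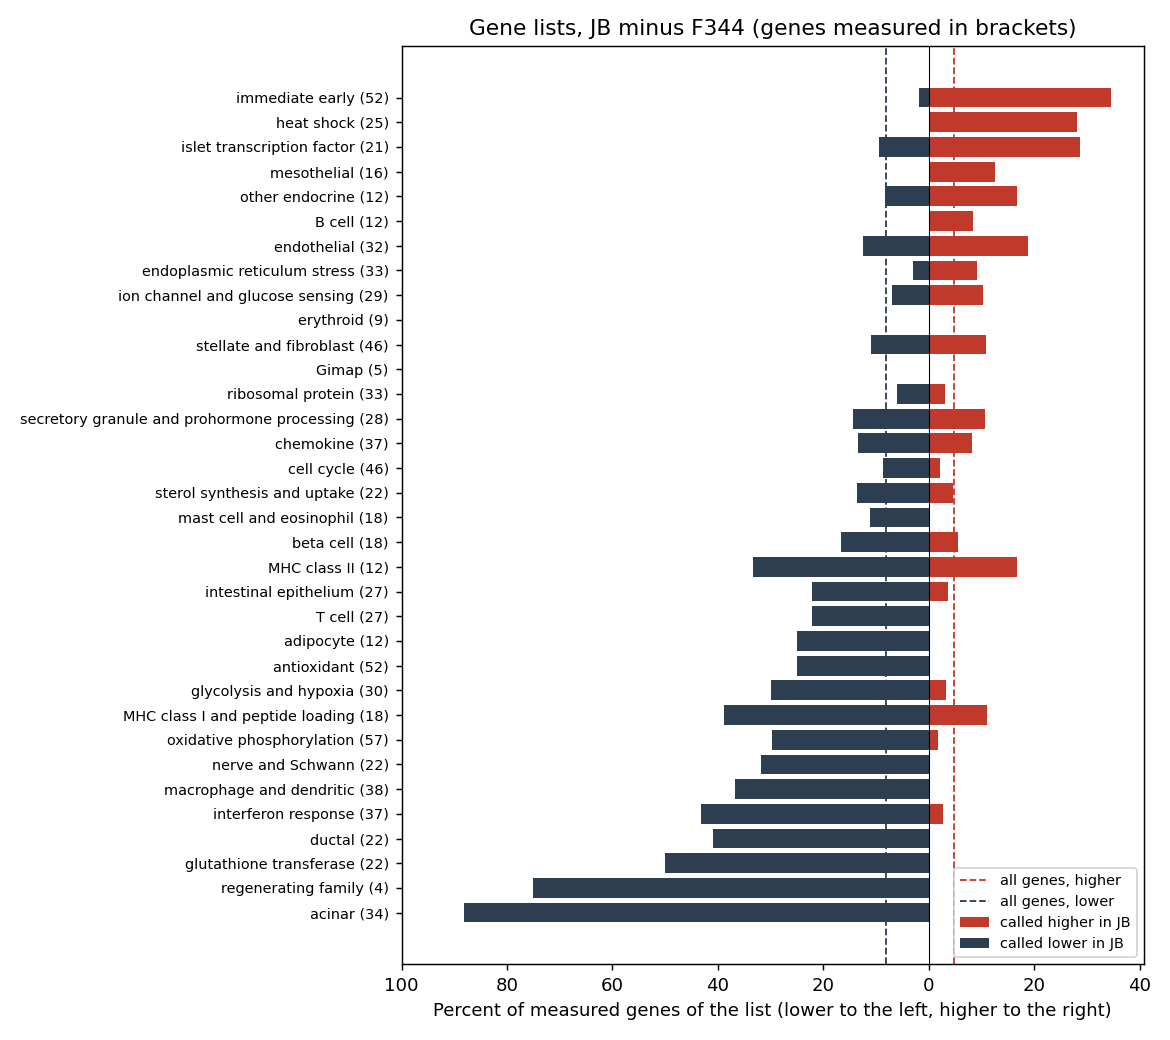
For each gene list, the percent of its measured genes called lower in JB (left, dark) and higher in JB (right, red). Lists are ordered by the percent higher minus the percent lower, with the number of genes measured in brackets. Dashed lines mark the 8.22% of all genes called lower and the 4.79% called higher. Acinar, regenerating family and glutathione transferase genes reach furthest to the left, and immediate early, islet transcription factor and heat shock genes furthest to the right.

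Immediate early genes, which cells transcribe within minutes of a stimulus, were higher in JB. Of 52 measured, 18 were called higher and 1 lower, where 4.79% of all genes were called higher, and the median difference was 0.51. The count fell to 12 when JB replicate 2 was left out, to 7 for F344 replicate 1 and to 8 for F344 replicate 2. The mean level over the list was 8.17 and 8.26 in JB, against 7.72 and 7.72 in F344.

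AP-1 subunits and nuclear receptors led the list. Fosb read 11.56 and 12.29 in JB, against 9.78 and 9.83 in F344, 4.34-fold higher (adjusted p = 0.00181). Jun, its dimer partner, read 12.15 and 12.11 in JB, against 10.86 and 10.81 in F344, 2.46-fold higher. The other probe sets of Jun differed by 1.31 and 1.07, both called. Nr4a2, an orphan nuclear receptor, read 7.78 and 7.93 in JB, against 5.61 and 6.05 in F344, 4.08-fold higher. Fos differed by 0.89 ± 0.15, and Fosl2 went the other way at -0.58 ± 0.13.

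Further called rises included the zinc finger factors Klf4 (1.16 ± 0.14) and Egr1 (1.14 ± 0.22), the stress-induced Gadd45b (1.22 ± 0.20), Atf3 (0.92 ± 0.15), and Tnfaip3, which restrains NF-kB signalling (1.06 ± 0.24). Egr1 read 12.19 and 12.76 in JB, against 11.35 and 11.33 in F344. Its adjusted p was 0.0531 without JB replicate 2.

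Heat shock genes, chaperones that refold damaged proteins, gave 7 of 25 higher and none lower, with a median of 0.12. The count was 5 without JB replicate 2 and 4 without F344 replicate 1 or without F344 replicate 2. Dnajb1, a co-chaperone, read 12.28 and 12.43 in JB, against 10.67 and 10.53 in F344, 3.37-fold higher. Hspa1a, the inducible HSP70, read 12.39 and 12.60 in JB, against 11.40 and 11.38 in F344, 2.15-fold higher. Hsph1, a nucleotide exchange factor for HSP70, read 11.26 and 11.13 in JB, against 10.19 and 10.09 in F344, 2.08-fold higher. In all 3, which were named for their large called differences, the JB arrays lay above the F344 arrays.

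Zfand2a, a zinc finger protein induced by arsenite and named after its values were seen, read 9.65 and 9.02 in JB, against 7.41 and 7.21 in F344, 4.07-fold higher. Dnajb6 was 9.41-fold higher, at 10.35 and 10.11 in JB, against 7.32 and 6.67 in F344, and it has no further probe set. In DR+/+, Dnajb6 read 10.15 and 10.19, close to JB, while Dnajb1 read 10.28 and 10.15 and Hsph1 9.41 and 9.34.

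**Figure D4:**
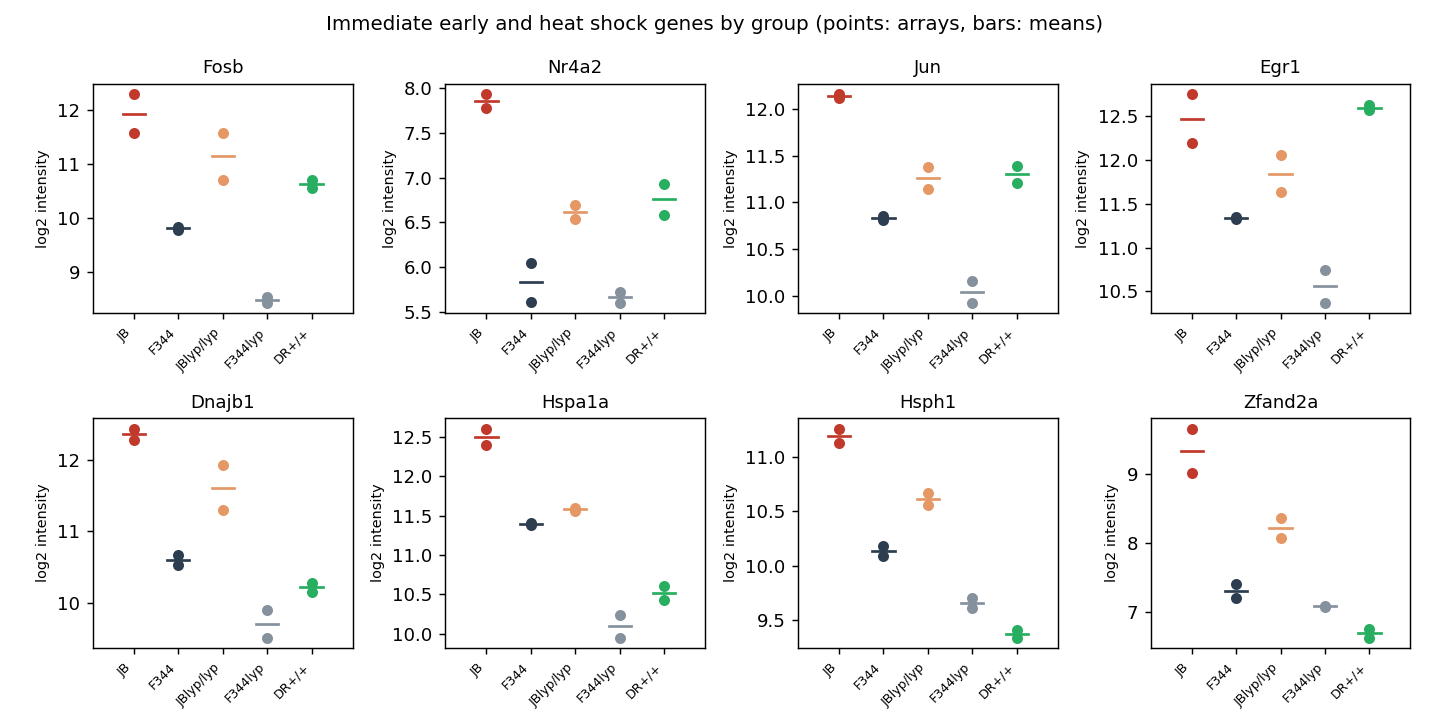
Log2 intensity on each array (points) with the group mean (bars) for Fosb, Nr4a2, Jun and Egr1 in the top row and Dnajb1, Hspa1a, Hsph1 and Zfand2a in the bottom row. Groups run from JB and F344 to JBlyp/lyp, F344lyp and DR+/+. JB lies above F344 in every panel, and DR+/+ lies below F344 for the 4 genes of the bottom row and above it for Egr1.

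Promoters of these genes were searched for the elements through which they are known to be induced. The windows are 300-base RefSeq promoters of build GRCr8 that span the start of the gene. The full cyclic AMP response element, TGACGTCA, its own reverse complement, was in 3 of 12 promoters found for immediate early genes called higher, 1 of 28 for those not called higher, and 1.83% of all 33469 promoters. The serum response element (CArG box) was in 1 of the 12, 4 of the 28 and 1.64% of all. The heat shock element, searched on both strands as GAA, TTC and GAA in turn with NN between the units, was in 2 of 6 promoters of heat shock genes called higher, 3 of 16 of the others and 0.798% of all, and this search was chosen after the values were seen. A match is a description of the letters in the window. Those shown are called genes that hold a match, with the element in capitals. They are Egr1 at chr18:26736828-26737127 (+ strand), Dusp1 at chr10:17184603-17184902 (+), Ier2 at chr19:40399123-40399422 (+), Jund at chr16:18769722-18770021 (- strand), Hsph1 at chr12:10427118-10427417 (+) and Dnaja1 at chr5:60638154-60638453 (+).
Egr1: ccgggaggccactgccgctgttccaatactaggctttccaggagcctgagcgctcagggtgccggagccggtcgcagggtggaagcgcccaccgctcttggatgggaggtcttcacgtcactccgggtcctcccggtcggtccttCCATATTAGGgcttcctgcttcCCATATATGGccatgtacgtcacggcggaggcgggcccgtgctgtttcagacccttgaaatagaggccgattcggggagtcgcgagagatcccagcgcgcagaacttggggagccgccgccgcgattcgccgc
Dusp1: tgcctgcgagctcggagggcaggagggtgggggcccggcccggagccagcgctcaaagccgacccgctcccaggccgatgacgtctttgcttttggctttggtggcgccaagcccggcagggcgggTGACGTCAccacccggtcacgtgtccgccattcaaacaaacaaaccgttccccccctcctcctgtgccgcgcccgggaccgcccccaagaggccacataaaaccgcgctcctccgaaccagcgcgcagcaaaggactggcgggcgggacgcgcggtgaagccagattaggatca
Ier2: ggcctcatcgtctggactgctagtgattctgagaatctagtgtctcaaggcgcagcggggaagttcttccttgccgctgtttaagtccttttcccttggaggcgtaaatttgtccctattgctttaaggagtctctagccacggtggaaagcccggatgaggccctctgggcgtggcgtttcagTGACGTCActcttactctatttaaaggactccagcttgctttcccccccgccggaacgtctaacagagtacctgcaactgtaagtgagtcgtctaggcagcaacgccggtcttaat
Jund: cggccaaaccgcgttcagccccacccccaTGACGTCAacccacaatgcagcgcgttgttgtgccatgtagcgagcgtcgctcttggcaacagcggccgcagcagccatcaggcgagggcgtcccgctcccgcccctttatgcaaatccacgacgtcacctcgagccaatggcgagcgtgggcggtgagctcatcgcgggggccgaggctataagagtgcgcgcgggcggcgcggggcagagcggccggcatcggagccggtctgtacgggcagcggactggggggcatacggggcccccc
Hsph1: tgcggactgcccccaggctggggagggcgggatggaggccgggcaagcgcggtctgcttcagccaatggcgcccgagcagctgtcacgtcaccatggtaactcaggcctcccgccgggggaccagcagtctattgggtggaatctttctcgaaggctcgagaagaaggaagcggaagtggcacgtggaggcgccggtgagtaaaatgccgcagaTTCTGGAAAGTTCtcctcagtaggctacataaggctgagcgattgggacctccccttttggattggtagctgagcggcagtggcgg
Dnaja1: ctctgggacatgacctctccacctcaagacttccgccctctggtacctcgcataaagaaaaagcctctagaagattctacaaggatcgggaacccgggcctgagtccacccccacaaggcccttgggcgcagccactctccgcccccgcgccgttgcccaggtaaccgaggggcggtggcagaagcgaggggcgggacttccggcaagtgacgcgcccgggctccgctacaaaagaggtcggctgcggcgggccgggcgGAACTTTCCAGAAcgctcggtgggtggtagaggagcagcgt

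Egr1 holds 2 serum response elements, the kind of site through which growth signals act on it. Dusp1, a phosphatase that switches off MAP kinases, read 11.55 and 11.51 in JB, against 10.88 and 10.71 in F344 (difference 0.74 ± 0.17). Ier2, an early response factor, read 10.34 and 10.24 in JB, against 9.15 and 9.18 in F344 (1.13 ± 0.16). Jund, the most steadily expressed JUN protein, read 11.63 and 12.16 in JB, against 11.19 and 10.98 in F344 (0.81 ± 0.21). Dnaja1, an HSP40 co-chaperone, differed by 0.70 ± 0.13.

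Endoplasmic reticulum stress genes gave 3 of 33 higher (9.09%) and 1 lower (3.03%), against 4.79% and 8.22% of all genes. The count of higher genes was 1 without JB replicate 1 or without F344 replicate 2, and 0 without F344 replicate 1. Hyou1, a chaperone of the reticulum, read 8.73 and 9.13 in JB, against 6.89 and 7.10 in F344, 3.82-fold higher. Ddit3, the factor CHOP, differed by 0.83 ± 0.21 and Creld2 by 0.51 ± 0.13. Wfs1, whose loss causes Wolfram syndrome with diabetes, read 5.28 and 5.50 in JB, against 6.22 and 6.06 in F344 (-0.75 ± 0.15).

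The largest rises were a mixed set. Fam111a, a protease active in DNA replication, read 11.67 and 11.73 in JB, against 5.04 and 4.79 in F344. The difference of 6.78 ± 0.15 is 110-fold (adjusted p = 4.17e-08). This gene was also high in JBlyp/lyp at 11.97 and 11.68 and in DR+/+ at 10.42 and 10.37, and low in F344lyp at 5.59 and 5.71. Cyp4v3, a fatty acid hydroxylase, read 8.36 and 8.64 in JB, against 5.15 and 4.94 in F344, a difference of 3.45 ± 0.21. Ythdf2, a reader of methylated adenosine in mRNA, read 9.04 and 8.92 in JB, against 6.07 and 6.00 in F344, 7.73-fold higher.

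Further probe sets of these genes did not show changes of that size. Of the 15 genes with the largest rises, 8 have 12 further probe sets. None of the 12 reached 0.5 of the difference, 1 was called the same way (Herc1, 0.80) and 1 the other way (Pa2g4, -0.61). The other probe set of Ythdf2 differed by 0.39 (adjusted p = 0.165) and that of Cyp4v3 by 0.18 (adjusted p = 0.603). Itsn2, an endocytic scaffold, differed by 2.94 on its brightest probe set and by 0.14 to 0.25 on the other 3. What each probe set covers was not examined, so apart from Herc1 the rise of each of these genes rests on a single probe set.

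Arhgap5, Cpne3 and Wac-ps1, each with a single probe set, differed by 2.56 ± 0.27, 2.46 ± 0.25 and 2.43 ± 0.33. Setd5, a chromatin regulator, was 7.02-fold higher, and Kif5c, a neuronal kinesin, 4.71-fold. Pxmp4, a peroxisomal membrane protein, was 5.58-fold higher. C2cd4a, a nuclear protein that inflammatory cytokines induce in human cells, read 7.53 and 7.32 in JB, against 5.20 and 5.18 in F344, 4.71-fold higher.

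The main islet hormones were not called between the strains. Ins2 read 13.90 and 13.90 in JB and 13.86 and 13.76 in F344 (difference 0.09 ± 0.13). Iapp, islet amyloid polypeptide, read 12.64 and 12.17 in JB and 12.87 and 12.82 in F344 (adjusted p = 0.363). Sst, somatostatin, differed by -0.50 ± 0.18 and Ppy, pancreatic polypeptide, by 0.90 ± 0.30, neither of them called.

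Of 18 beta cell markers 1 was called higher and 3 lower, with a median of 0.12, and none was lower without JB replicate 2, without F344 replicate 1 or without F344 replicate 2. Mean levels over the list were 9.92 and 10.02 in JB and 9.94 and 9.90 in F344. Glp1r, the receptor for the incretin GLP-1, read 9.21 and 8.89 in JB, against 8.07 and 8.06 in F344, 1.98-fold higher. Gipr, the receptor for the other incretin, read 9.92 and 9.66 in JB, against 10.43 and 10.48 in F344, 1.58-fold lower. Npy, neuropeptide Y, differed by -1.19 ± 0.28. Among other endocrine markers Ghrl, the hormone ghrelin, read 6.53 and 5.90 in JB, against 4.85 and 4.74 in F344, 2.68-fold higher. Ttr, transthyretin, read 5.70 and 5.87 in JB, against 7.64 and 7.31 in F344, 3.22-fold lower.

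Islet transcription factors gave 6 of 21 higher and 2 lower, with a median of 0.28. The count of higher genes was 3 without JB replicate 1, 3 without JB replicate 2, 2 without F344 replicate 1 and 1 without F344 replicate 2. St18 read 7.01 and 7.54 in JB, against 5.70 and 5.54 in F344, 3.15-fold higher. Irx2, an alpha cell factor, differed by 1.01 ± 0.17 and Neurod1, which drives endocrine differentiation, by 0.79 ± 0.18. Pdx1, the beta cell factor that binds the insulin promoter, read 8.86 and 8.36 in JB, against 9.46 and 9.31 in F344 (-0.78 ± 0.21). The adjusted p of Pdx1 was 0.23, and that of Neurod1 0.127, when JB replicate 2 was left out.

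Secretory granule genes gave 3 of 28 higher (10.7%) and 4 lower (14.3%), against 4.79% and 8.22% of all genes. Without JB replicate 1 the counts were 1 and 1, without JB replicate 2 they were 1 and 4, and without F344 replicate 1 or F344 replicate 2 they were 0 and 1. Ptprn2, a granule membrane protein and an autoantigen in type 1 diabetes, read 9.15 and 8.94 in JB, against 10.68 and 10.90 in F344, 3.35-fold lower. Its relative Ptprn, the autoantigen IA-2, read 9.60 and 10.30 in JB, against 10.84 and 10.76 in F344, 1.80-fold lower, and turned positive in the fit with the Gapdh covariate. Cadps, which primes granules for release, differed by 0.86 ± 0.17, while its other probe set differed by -0.37 and was not called. Of 29 ion channel and glucose sensing genes 3 were higher and 2 lower, with 1 higher without F344 replicate 1 or F344 replicate 2. Scn9a, a sodium channel, read 6.88 and 6.80 in JB, against 5.50 and 5.70 in F344, 2.36-fold higher.

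Immune genes were lower in several lists. The interferon response gave 16 of 37 genes lower and 1 higher, with a median of -0.39. The count of lower genes was 9 without JB replicate 2 and 7 without F344 replicate 1 or without F344 replicate 2. Ifi27 read 8.99 and 8.74 in JB, against 10.84 and 10.70 in F344, 3.74-fold lower. Mx1, which blocks viral replication, read 4.20 and 4.32 in JB, against 6.06 and 6.13 in F344, 3.56-fold lower. Ifi44l was 3.24-fold lower. Irgm, an immunity GTPase, was the gene called higher, at 6.64 and 7.11 in JB, against 5.57 and 5.47 in F344.

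Genes of MHC class I and peptide loading gave 7 of 18 lower and 2 higher. The count of lower genes was 4 without JB replicate 2, 3 without F344 replicate 1 and 4 without F344 replicate 2. Psmb10 and Psmb9, subunits of the immunoproteasome, were 3.07-fold and 2.59-fold lower. Tapbp, tapasin, differed by -1.06 ± 0.22. Erap1, which trims peptides for class I, read 9.50 and 9.29 in JB, against 8.40 and 8.25 in F344, 2.10-fold higher.

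For MHC class II, 4 of 12 genes were lower and 2 higher, but probe sets of single genes disagreed. The count of lower genes was 2 without JB replicate 1 or without F344 replicate 2, and 1 without F344 replicate 1. RT1-Bb differed by 2.19 on its brightest probe set and by -4.91 on the other, both called. RT1-Ba differed by 1.34 on its brightest probe set and by -2.69, -0.72 and -0.19 on the others. No direction is given for these genes, which encode the polymorphic RT1.B molecule. RT1-Db1, of the RT1.D molecule, read 6.52 and 6.57 in JB, against 8.52 and 8.41 in F344, 3.78-fold lower. RT1-DMb, which helps to load peptides, was 1.95-fold lower.

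Macrophage and dendritic cell markers gave 14 of 38 lower and none higher, with a median of -0.45. The count was 7 without JB replicate 2, 3 without F344 replicate 1 and 5 without F344 replicate 2. The complement genes C1qa and C1qc, made by tissue macrophages, were 3.24-fold and 2.78-fold lower. C1qa read 6.43 and 6.14 in JB, against 8.02 and 7.95 in F344. Cyba, a subunit of the superoxide-producing NADPH oxidase, was 2.45-fold lower. The defining marker Cd68 read 4.94 and 5.04 in JB, against 5.66 and 5.59 in F344 (-0.64 ± 0.13). Csf1r was not called (adjusted p = 0.089), and the probe sets of Aif1 differed by 0.01 and -1.78.

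T cell markers gave 6 of 27 lower and none higher, and 2 were lower without JB replicate 2, without F344 replicate 1 or without F344 replicate 2. Mean levels over the list were 4.72 and 4.70 in JB, against 5.16 and 5.09 in F344. Cd3d, of the T cell receptor complex, read 5.64 and 5.66 in JB, against 6.73 and 6.61 in F344, 2.02-fold lower. Cd3e differed by -0.68 ± 0.28 and Cd3g by -0.94 ± 0.29, with adjusted p-values of 0.158 and 0.0696, while the other probe set of Cd3e was called at -0.52 (adjusted p = 0.0416). Cd8a read 3.94 and 3.47 in JB, against 4.42 and 4.58 in F344, near the bottom of the scale. The array labelled JB replicate 2 did not stand apart from replicate 1 on this list, whereas it did for Gimap5. The list means were 4.45 and 4.53 in JBlyp/lyp, 4.75 and 4.70 in F344lyp, and 4.96 and 4.99 in DR+/+. Both JB arrays thus lay within the range of the lyp arrays, while the F344 and DR+/+ arrays lay above it. Whether a JB array carries lyp was not tested. B cell markers gave 1 of 12 higher, Blnk, and none lower.

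Chemokines moved in both directions, with 3 of 37 higher and 5 lower (2 lower without F344 replicate 1). Cxcl10, which draws CXCR3-bearing T cells, read 7.86 and 8.40 in JB, against 5.31 and 5.64 in F344, 6.29-fold higher (adjusted p = 0.000126). In DR+/+ it read 5.01 and 4.96. Cxcl1, a neutrophil chemokine, read 7.88 and 8.26 in JB, against 6.50 and 6.52 in F344, 2.95-fold higher. Ccl5, made by T cells, read 5.13 and 5.67 in JB, against 6.83 and 6.87 in F344, 2.73-fold lower. Pf4 and Ccl19 were 2.63-fold and 2.36-fold lower. Over the list, 8.11% were called higher and 13.5% lower, against 4.79% and 8.22% of all genes.

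Nerve and Schwann genes gave 7 of 22 lower and none higher, with a median of -0.27. For JBlyp/lyp minus F344lyp the median was 0.015, with 2 genes called higher and none lower. The F344 arrays had the highest list means, 6.70 and 6.64, against 6.15 and 6.11 in JB. These means were 6.29 and 6.12 in JBlyp/lyp, 6.25 and 6.19 in F344lyp, and 6.00 and 6.03 in DR+/+. Vip, a neuropeptide of pancreatic nerves, read 7.69 and 7.93 in JB, against 9.51 and 9.54 in F344, 3.28-fold lower. Prph, the neuronal filament peripherin, read 7.26 and 7.09 in JB, against 8.97 and 9.03 in F344, 3.53-fold lower. Stmn2 and Nefl, of the neuronal cytoskeleton, were 3.35-fold and 2.96-fold lower. The Schwann cell markers Sox10 and S100b were not called (adjusted p = 0.382 and 0.748).

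Endothelial markers gave 6 of 32 higher (18.8%) and 4 lower (12.5%), against 4.79% and 8.22% of all genes. The count of higher genes was 3 without JB replicate 2 and 0 without F344 replicate 1 or without F344 replicate 2. Vwf, von Willebrand factor, read 8.33 and 7.80 in JB, against 9.69 and 9.49 in F344, 2.87-fold lower. Sox17, an arterial factor, read 7.39 and 8.08 in JB, against 6.38 and 6.54 in F344, 2.42-fold higher. The general marker Pecam1 read 7.42 and 7.49 in JB and 7.62 and 7.70 in F344 (adjusted p = 0.693). Stellate and fibroblast genes gave 5 of 46 higher and 5 lower (10.9% each way), with a median of -0.001. The count of higher genes was 2 without JB replicate 1, 1 without JB replicate 2, 0 without F344 replicate 1 and 1 without F344 replicate 2, and 2 were lower without either of the F344 arrays in turn. The brightest probe sets of the collagens Col1a1, Col1a2 and Col3a1 were not called, and the other of Col1a2 was called at 0.62 (adjusted p = 0.0496). Tagln, of contractile cells, read 9.05 and 9.46 in JB, against 10.72 and 10.66 in F344, 2.71-fold lower. Mesothelial genes gave 2 of 16 higher, among them Msln, at 13.01 and 12.88 in JB, against 12.24 and 12.17 in F344.

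The strain difference without lyp was then set against that with lyp, JBlyp/lyp minus F344lyp, which uses other arrays. The Gapdh 3′ minus 5′ difference split these groups too, at 2.75 and 2.97 in JBlyp/lyp against 2.20 and 2.19 in F344lyp. Shared calls therefore cannot tell the strain from this measure of RNA. Same-numbered JB and JBlyp/lyp arrays also deviated together, at a correlation of 0.652. Of the 681 genes higher in JB, 365 (53.6%) were also called higher in JBlyp/lyp, which is 54.6% of the 668 called there, where 4.70% of all genes were. Of the 1168 lower genes, 756 (64.7%) were also called lower, 47.1% of 1605, where 11.3% of all genes were. Only 3 of the higher and 1 of the lower genes were called in the opposite direction.

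The test of the difference itself called 88 probe sets (0.283%), 79 positive (0.254%) and 9 negative (0.0290%), and 68 genes (0.478%), 61 positive (0.429%) and 7 negative (0.0492%). Leaving out an array gave 54 probe sets without JB replicate 1, 23 and 18 without F344 replicates 1 and 2, and 37 and 19 without F344lyp replicates 1 and 2. A positive value means that the JB minus F344 difference was less negative, or more positive, than that with lyp. In 58 of the 61 positive genes F344lyp lay above F344 by at least 1, and in none did JBlyp/lyp lie below JB by that much. Over the 68 genes the median was 1.89 for F344lyp minus F344 and -0.11 for JBlyp/lyp minus JB. At 66 of the 68 the gap between the F344 groups was larger than that between the JB groups.

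Reg3g had the largest such value, 3.65: it read 4.91 and 4.86 in JB and 5.47 and 5.17 in F344, but 4.26 and 4.05 in JBlyp/lyp and 8.16 and 8.33 in F344lyp. Si, the brush border enzyme sucrase-isomaltase, gave 2.93, with 5.84 and 5.99 in F344lyp and 2.88 and 2.90 in F344. Ptf1a gave 2.79 and the amylase Amy1 2.80. Members of the acinar list made up 6 of the 68 genes, as did those of the intestinal epithelium list. The mean level of the acinar list was 12.00 and 12.21 in F344lyp, against 11.19 and 11.01 in F344, and its part in these values was not tested. Vip, at -2.05, and Prph, at -1.52, went the other way, since F344 stood above the other groups: Vip read 7.72 and 7.70 in F344lyp, against 9.51 and 9.54 in F344.

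**Figure D5:**
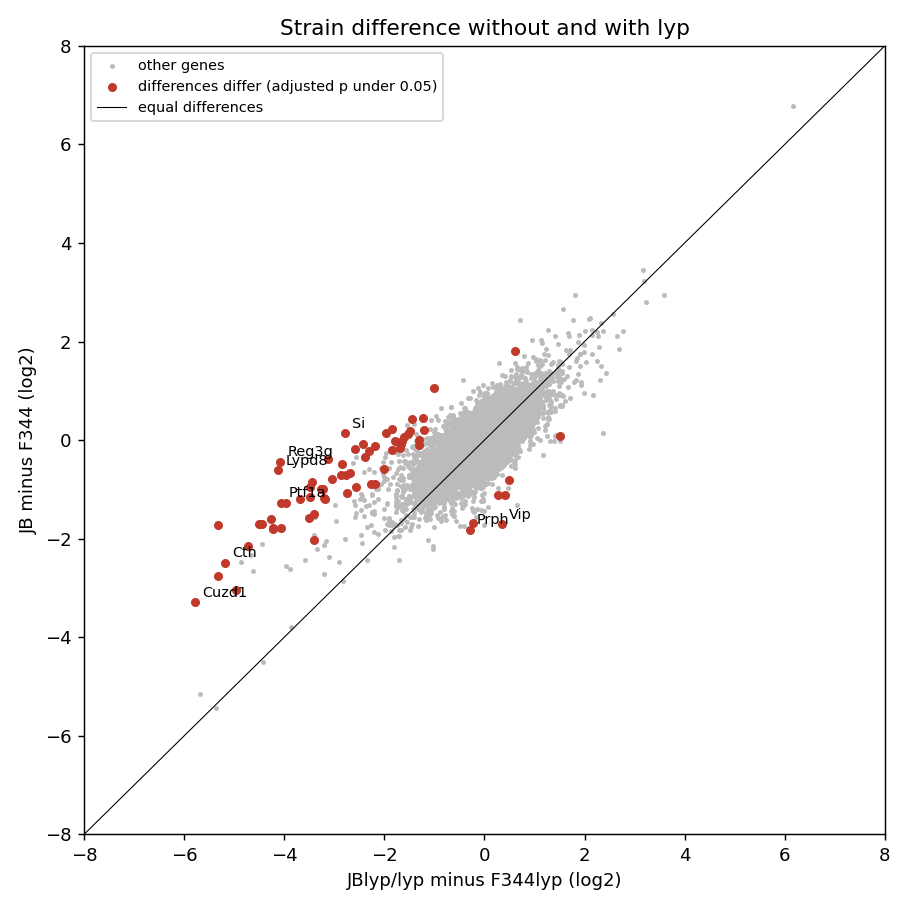
Each point is a gene, with JBlyp/lyp minus F344lyp on the horizontal axis and JB minus F344 on the vertical axis (log2), and the line marks equal differences. Red points are the 68 genes whose differences differed. Most lie above the line at the left, where the fall was larger with lyp, and Vip and Prph lie below it.

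JB was last set against DR+/+, which shares the JB arrays with the comparison to F344. It called 8793 probe sets (28.3%), 4765 higher (15.4%) and 4028 lower (13.0%), and 4833 genes (34.0%), 2623 higher in JB (18.4%) and 2210 lower (15.5%). Slc26a3, an anion exchanger, read 3.39 and 3.38 in JB, against 8.10 and 8.05 in DR+/+. C2cd4b, a relative of C2cd4a, read 9.85 and 8.90 in JB, against 5.11 and 4.65 in DR+/+. Prlr, the prolactin receptor of beta cells, read 10.82 and 10.48 in JB, against 5.87 and 6.96 in DR+/+. Upk1b, Bnc1 and Scel, genes of surface epithelia, were lower in JB, with differences of -4.21, -4.20 and -3.71.

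The cell lists moved with this comparison. Mean levels of the beta cell list were 9.92 and 10.02 in JB, against 8.26 and 8.30 in DR+/+, with 16 of 18 genes called higher in JB. Those of the endothelial list were 7.90 and 8.01 in JB, against 9.06 and 9.06 in DR+/+, with 25 of 32 called lower, and the mesothelial list read 7.24 and 7.13 in JB, against 8.80 and 8.81 in DR+/+. The part of these lists in the other differences was not tested. Of the genes with the largest differences from F344, Reg3a and Reg1a were not called between JB and DR+/+ (adjusted p = 0.627 and 0.734), nor were Dnajb6 (0.872) and Ythdf2 (0.128). Reg3b and Reg3g, the other 2 regenerating genes measured, were called lower in JB than in DR+/+. Cxcl10 differed by 3.15 and Alb by -2.36.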

How the data were processed

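RNA of pancreatic islets was measured on 10 one-colour Affymetrix arrays, 2 in each of 5 groups. The deposited values are log2 intensities that the authors made with RMA. The submitters' processing notes also name GCOS, and versions were not found in the sources used. They were used as deposited. Control probe sets (57 of 31099) were set aside. Through the platform annotation 20826 of 31042 probe sets had 1 gene symbol, 436 had several and 9780 had none; 20758 identifiers were found in the RefSeq table of GRCr8.

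A limma 3.58.1 fit in R 4.3.3 gave each group a mean over all 10 arrays, with 5 residual and 4.72 prior degrees of freedom. Moderated tests were two-sided, adjusted by Benjamini-Hochberg over 31042 probe sets and called under 0.05. Calls of genes keep that adjustment. The fit was tested on simulated data for JB minus F344: over 31042 probe sets it recovered 0.8% of log2 changes of 0.5, 45.6% of log2 changes of 1 and 91.6% of changes of 2, and 3.9% of its calls were false. The simulated noise was independent between arrays, few probe sets were changed, and no shift in RNA quality was added. These shares therefore need not hold for the calls in the data. The number of arrays limits the precision.

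Named genes were the 15 largest called rises and falls without overlap between the groups, up to 5 called members of each list, the first 3 markers of each cell list, the islet hormones and Gimap5, the 8 largest of the other comparisons, and list members whose role is described. Uncharacterised loci and olfactory receptors were passed over by the form of their symbols, which did not catch 1810009J06Rikl. The genes whose promoters are shown were chosen after their values were seen. The groups compared and all lists were chosen with earlier results of these data known, so no list was tested and none gives independent support. Alternatives were other fits, scalings, filters, a Gapdh covariate, a replicate block and leaving out arrays; the set without DR+/+ was chosen after seeing the data.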

Additional observations from a re-analysis of the deposited data

Results flagged for a closer look

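The JB minus F344 difference was tested against the JBlyp/lyp minus F344lyp difference, and 88 probe sets passed. Among the named genes the difference between these 2 differences was positive for Reg3g (3.649), the uncharacterised 1810009J06Rikl (3.593), Lypd8 (3.519), Si (2.927), Amy1 (2.796), Ptf1a (2.789), Tinag (2.75), Ptger3 (2.73), Cth (2.694), Ang (2.567) and Cuzd1 (2.503). It was also positive for Lgals4 (2.324), Tff2 (2.29), Upk1b (2.112), Lrrn4 (2.065), Ggt1 (2.018), Muc1 (1.917), Spink1l (1.911) and Anpep (1.658). It was negative for the nerve genes Vip (-2.054) and Prph (-1.523).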

How the results depend on the processing

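The setting that changed most was the Gapdh 3′ minus 5′ difference as a covariate. With it 1 probe set was called for JB minus F344 (1 gene), against 3595 without it, and 0 immediate early, heat shock, antioxidant, glutathione transferase, oxidative phosphorylation, interferon, acinar and macrophage genes; the test of the difference with lyp called 7 probe sets, against 88. The JB and F344 values of the covariate did not overlap. Under it the sign turned for Cdkn1a (-0.061), Col6a2 (0.700), Ptprn (0.618), Ramp2 (0.084), Rpl11 (0.116), Syt5 (0.016) and Vamp2 (0.275). The mean over all probe sets of a gene turned Aif1 (-0.885), RT1-Ba (-0.563) and RT1-Bb (-1.365).

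Leaving out 1 array gave 879 to 2563 probe sets and 403 to 1378 genes for JB minus F344, with the fewest without F344 replicate 1, where the lone array is assumed to vary like the other groups. It gave 7 to 17 immediate early and 4 to 8 heat shock genes called higher, and 4 to 12 antioxidant, 5 to 10 glutathione transferase, 0 to 12 oxidative phosphorylation, 7 to 14 interferon, 15 to 29 acinar and 3 to 12 macrophage genes called lower. The test of the difference with lyp gave 18 to 130 probe sets. A mean of at least 6 left 2393 probe sets (31 for the difference with lyp and 5743 for JB minus DR+/+), 10 interferon and 9 macrophage genes. A log2 difference of at least 1 left 1434 probe sets and 632 genes, 8 immediate early, 6 antioxidant, 5 oxidative phosphorylation, 7 interferon and 6 macrophage genes, and 4050 probe sets for JB minus DR+/+. Without the DR+/+ arrays 11 oxidative phosphorylation genes were called. The cause of these changes was not tested, except that fewer arrays or probe sets were fitted.

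The replicate block called 4456 probe sets and kept all 167 called named genes. Same-numbered JB and F344 arrays deviated together at a correlation of 0.213, those of JB and JBlyp/lyp at 0.652, and the labels give the numbers no shared source. Of the 167, 165 stayed called after quantile normalization, 162 with an intensity trend, 156 with the compared arrays alone, and 122 without JB replicate 2.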

Other observations

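Cell cycle genes gave 4 of 46 lower and 1 higher, and none lower without JB replicate 2, F344 replicate 1 or F344 replicate 2: the mitotic activator Cdc20 differed by -0.71 ± 0.18 and E2f1 by -0.68 ± 0.15, and the inhibitor Cdkn1a by 0.72 ± 0.16. Sterol synthesis and uptake gave 3 of 22 lower and 1 higher (1 lower without either JB array in turn, 0 without either F344 array), with Pmvk at -0.97 ± 0.20 and Cyp51 at 0.66 ± 0.18. Further probe sets of Cdc20 differed by 0.02, -0.18, 0.13 and 0.10, none of them called. The other probe set of Cdkn1a differed by -0.11 and that of Cyp51 by -0.35, neither called. Mast cell and eosinophil markers gave 2 of 18 lower, and the proteases Mcpt1 and Mcpt4 were not called. Adipocyte markers gave 3 of 12 lower, and 1 without JB replicate 2 or without F344 replicate 1, with Adipoq not called (adjusted p = 0.724). None of the 9 erythroid genes was called. The share called lower was 8.7% for cell cycle genes and 11.1% for mast cell and eosinophil markers, near the 8.22% of all genes.

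Intestinal epithelium markers gave 6 of 27 lower and 1 higher in JB. Apob, the apolipoprotein of chylomicrons, read 5.45 and 5.67 in JB, against 6.77 and 7.16 in F344, 2.65-fold lower. Krt20 and Fcgbp were 2.65-fold and 2.42-fold lower. The defining markers Fabp2 and Cdx1 were near the bottom of the scale and were not called (adjusted p = 0.86 and 0.442).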
